A study of Rattus norvegicus with 20 samples.

Results

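Rat neural stem cells that had received a Wnt stimulus for 1 d and then spent 2 d without it (1 d ON 2 d OFF) were compared with cells that had received none and were collected on the same day, day 3. Members were the libraries whose labels give these treatment profiles, tied to the count table by the well in each label. They were 5 of the 20 libraries of the series, 3 withdrawn and 2 unstimulated. The cells were adult hippocampal stem cells of the Fisher 344 rat strain kept in culture, and their RNA was read from the 3' ends of transcripts (Lexogen QuantSeq, low RNA input). The 3 withdrawn libraries came from optoWnt cells, that is, cells transduced with the optoWnt construct and selected with puromycin, and differed in the inducer: CHIR99021 (labelled as 3 mM), Wnt3a (100 ng/mL) or light. The 2 unstimulated libraries had no inducer, and 1 came from wild-type and 1 from optoWnt cells. The labels give a basal medium with 0.5% FBS for all. The titles of the unstimulated 3 d libraries contain ON as well, and the sources used here do not say whether light was shone on them. Each combination of genotype, inducer and profile was sequenced once, so light is represented by a single withdrawn library and is given apart from CHIR99021 and Wnt3a.

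In the canonical Wnt pathway, a Wnt ligand brings the receptor Frizzled and the co-receptor LRP6 together and stops a destruction complex, which contains the kinase GSK-3, from marking β-catenin for degradation. β-catenin then accumulates, enters the nucleus and activates transcription with TCF and LEF factors. Wnt3a acts at the receptor, CHIR99021 blocks GSK-3 and so acts below it, and optoWnt is a light-sensitive form of LRP6 that clusters under blue light. In the adult hippocampus this pathway is known for its part in the proliferation of neural stem cells and in their differentiation into neurons. The count table lists genes by Ensembl identifier alone, and the tables used here matched 0 of its 32623 identifiers to a symbol. Genes are therefore described by identifier, no pathway gene or cell type marker could be looked up, and the labelled cell type was not checked against markers.

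Total reads ran from 3485025 to 5935681 in the 5 libraries, against 696463 to 5935681 over all 20. A count of 0 in these 5 allows a level of up to 0.513 to 0.865 CPM, the level of 3 counts per library (CPM, a gene's reads scaled to the TMM-adjusted library total). These limits cover counting error only. The 5 libraries did not all sit together on the first principal component of log2 CPM over all 20 libraries, which held 29.4% of the variance. The CHIR99021 and Wnt3a withdrawn libraries scored -43.9 and -68.7, whereas the light withdrawn library scored 38.1 and the unstimulated ones 23.3 (wild-type) and 14 (optoWnt). They are 2 of 6 libraries at -41.5 or lower, with light 3 d ON, Wnt3a 5 d ON and wild-type cells at 0 and 5 d, and the other 14 scored 8.9 or higher. Both libraries in which a chemical or ligand had been withdrawn are thus among the low-scoring ones and neither unstimulated library is, so in this design that difference and withdrawal of CHIR99021 or Wnt3a cannot be told apart.

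**Figure D1:**
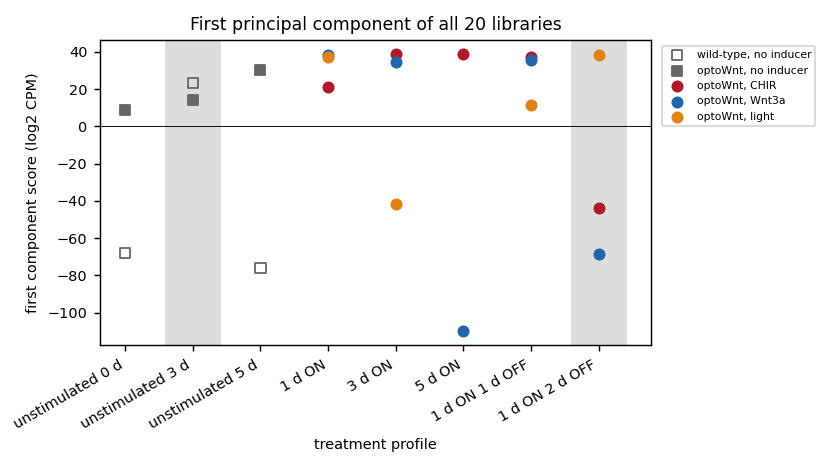
Score of each of the 20 libraries on the first principal component of log2 CPM (vertical axis) by treatment profile (horizontal axis), 1 point per library, with the 2 profiles compared shaded. The CHIR99021 and Wnt3a libraries of 1 d ON 2 d OFF sit at -43.9 and -68.7, and the light library and both unstimulated 3 d libraries sit above 0.

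To follow this difference in the results, genes that separate the low-scoring libraries were taken from the 15 libraries outside the comparison. There, 757 of the 12190 genes tested were lower in each of the 4 low-scoring libraries than in each of the 11 others. Another 325 were higher. Of the 757, 714 were below both unstimulated 3 d libraries in the CHIR99021 library, 736 in the Wnt3a library and 166 in the light library. Their median log2 difference from the unstimulated mean was -1.27, -1.48 and 0.16 in the same order. Of the 325, 273, 308 and 57 were above both unstimulated libraries, with medians of 0.57, 0.93 and -0.38. The same counts over all genes were not taken. The scores that sort the libraries came from all 20, including those compared, so the 2 sets are not independent of the comparison. Both sets are called component genes from here on.

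The first question was how far apart the 5 libraries were as wholes. Of 8116 genes that averaged 10 CPM or more in the 5 libraries, the withdrawn light library differed 2-fold or more from unstimulated optoWnt cells in 747 genes, or 9.2%. That is fewer than the 905 genes (11.2%) by which the 2 unstimulated libraries differed from each other. Against unstimulated wild-type cells the light library differed in 1532 genes. The CHIR99021 library differed from the unstimulated libraries in 1747 (wild-type) and 1810 genes (optoWnt), and the Wnt3a library in 2398 and 2319. CHIR99021 and Wnt3a differed from each other in 627 genes, the smallest number of the 10 pairs, and from light in 2705 and 3105. The light library was therefore nearest to unstimulated cells of its own genotype, and the CHIR99021 and Wnt3a libraries were nearest to each other. Each value rests on single libraries, and no test was made on these counts.

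**Figure D2:**
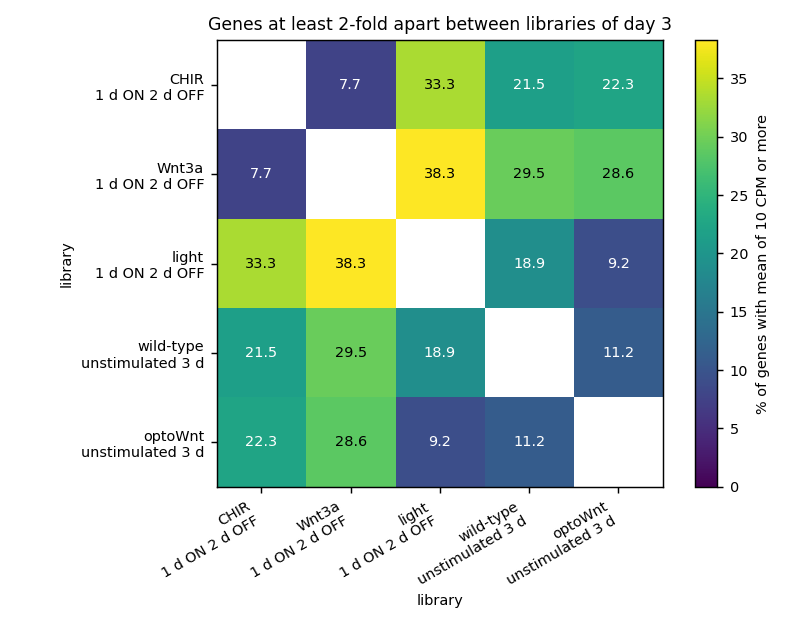
Share of the 8116 genes averaging 10 CPM or more that were 2-fold or more apart (colour and printed percentage) for each pair of the 5 libraries on the 2 axes. The CHIR99021 and Wnt3a pair (7.7%) and the light and optoWnt unstimulated pair (9.2%) are the closest, and the Wnt3a and light pair (38.3%) is the farthest apart.

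With the 3 inducers pooled, 0 of 12190 genes (0%) passed edgeR's quasi-likelihood test for a difference between withdrawn and unstimulated cells (3 libraries against 2, smallest adjusted p 0.636). At an unadjusted p under 0.05, 463 genes were higher (3.8%) and 435 lower (3.57%), where 610 in all would be so by chance. DESeq2 called 0 of 20345 genes (1396 unadjusted). All 3 withdrawn libraries were at least 2-fold above both unstimulated ones in 14 of the 6861 genes with 10 CPM or more in each of the 3 (0.204%). They were at least 2-fold below in 8 of the 7536 genes with 10 CPM or more in both unstimulated libraries (0.106%). Since these are bulk libraries, fewer cells that express a gene and less RNA per cell cannot be told apart. Few genes stood off from the unstimulated level by that margin under every inducer.

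Of the 12190 genes tested, 142 had an unadjusted p under 0.05, 10 CPM or more in each withdrawn library and no overlap between groups. Among these 142, ENSRNOG00000051023 had the largest positive estimate. It stood at 16.9 (CHIR99021), 31.4 (Wnt3a) and 24.4 CPM (light) after withdrawal and at 7.5 (wild-type) and 2.56 CPM (optoWnt) without a stimulus. The means were 24.3 ± 7.25 (SD, n = 3) and 5.03 ± 3.49 CPM (SD, n = 2), and the edgeR estimate was an estimate of 3.25 on the log2 scale (SE 0.91, edgeR adjusted p = 0.636). All 3 withdrawn values lay above both unstimulated ones, but unstimulated wild-type cells at 5 d held 86.5 CPM and those at 0 d 13.5 (wild-type) and 15.9 CPM (optoWnt). ENSRNOG00000015641 stood at 13.9, 16.7 and 12.3 CPM (CHIR99021, Wnt3a, light) against 6.5 and 1.88 CPM, an estimate of 2.79 on the log2 scale (SE 0.8, edgeR adjusted p = 0.636). Unstimulated wild-type cells at 5 d reached 15.5 CPM, within the withdrawn range.

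Among the 164 of 12190 genes tested that met the same conditions downward, the largest estimate belonged to ENSRNOG00000018045. It stood at 10.6, 5.48 and 16.5 CPM after withdrawal (same order of inducers), against 52.8 (wild-type) and 42.6 CPM (optoWnt) without a stimulus. The means were 10.9 ± 5.53 (SD, n = 3) and 47.7 ± 7.21 CPM (SD, n = 2), the log2 fold change was -3.83 (SE 1.4) and the edgeR adjusted p was 0.636. ENSRNOG00000055063 stood at 1.95, 1.44 and 4.41 CPM against 19 and 10.8 CPM, an estimate of -3.5 on the log2 scale (SE 1.33, edgeR adjusted p = 0.636). Leaving out 1 library moved both: without the wild-type or the optoWnt unstimulated 3 d library the estimates were -2.01 and -6.44 for ENSRNOG00000018045 and -1.96 and -5.94 for ENSRNOG00000055063. Without the light library they were -4.48 and -4.64, and with the first component as a covariate -1.47 and -1.51. In both genes the light library, which is not low-scoring, was also below both unstimulated libraries. Both are component genes, and both stood at 0.518 CPM in unstimulated wild-type cells at 5 d.

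The estimates above come from a model with a term for genotype, because all withdrawn cells carried optoWnt and 1 unstimulated library did not. Of the 3 wild-type libraries that inform this term, 2 are low-scoring. The estimates differ from the plain differences for component genes and for others. For ENSRNOG00000018045 the plain difference of mean log2 CPM was -2.19 against the model's -3.83. For the 2 positive estimates it was 2.27 against 3.25 (ENSRNOG00000051023) and 1.84 against 2.79 (ENSRNOG00000015641). The direction was the same in each.

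CHIR99021 and Wnt3a without light gave a wider spread of differences, again with 0 of 12190 genes called by edgeR's quasi-likelihood test (0%; 2 libraries against 2, smallest adjusted p 0.167). At an unadjusted p under 0.05, 1121 genes were higher (9.2%) and 1379 lower (11.3%), against 610 in all by chance. Of these, 127 of the 1121 and 524 of the 1379 were component genes of the same direction, beside 325 and 757 of all 12190. The absence of calls depended on the setting. DESeq2 called 886 of 9695 genes (293 higher, 593 lower), and edgeR with no low-count filter 920 of 20345 (173 and 747). On these 4 libraries alone edgeR called 1101 of 10861 (358 and 743). Without the 4 low-scoring libraries outside the comparison it called 611 of 12632 (95 and 516). Between them, 438 genes were called by all 4 of these settings, 52 higher and 386 lower, and 238 of the 438 were in the lower and 5 in the higher component set. With the first component as a covariate edgeR called 0 (887 unadjusted), and without the genotype term 0 (1335 unadjusted).

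By size, both libraries were at least 2-fold above both unstimulated ones in 192 of 7449 genes (2.58%) and at least 2-fold below in 472 of 7536 (6.26%). The CHIR99021 library alone was beyond by that margin in 384 genes upward (4.88%) and 642 downward (8.52%). The Wnt3a library was so in 660 (8.37%) and 917 (12.2%). In each library the genes below outnumbered those above.

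Of the 12190 genes tested under CHIR99021 and Wnt3a, 853 met the conditions for naming upward. The largest positive estimate among them belonged to ENSRNOG00000026053. After withdrawal it stood at 13.5 (CHIR99021) and 18.4 CPM (Wnt3a), against 2 (wild-type) and 0.684 CPM (optoWnt) without a stimulus. The means were 16 ± 3.53 and 1.34 ± 0.931 CPM (SD, n = 2 each), and the log2 fold change was 4.15 (SE 0.96, adjusted p by edgeR = 0.167). DESeq2 (adjusted p = 0.00122), edgeR with no low-count filter (0.000769), edgeR on the 4 libraries alone (0.00569) and edgeR without the 4 other low-scoring libraries (0.0336) called it. The estimate was 4.74 without the CHIR99021 library, 3.28 without the Wnt3a library and 3.25 without the optoWnt unstimulated 3 d library. It is no component gene, and the low-scoring unstimulated libraries, wild-type 0 d and 5 d, held 0 and 4.14 CPM. ENSRNOG00000056003 stood at 10.9 and 13.8 CPM against 2.75 and 0.684 CPM, an estimate of 3.71 on the log2 scale (SE 1.05, edgeR adjusted p = 0.167). The light library held 0.661 CPM of it, within the unstimulated range, and the low-scoring libraries wild-type 5 d and Wnt3a 5 d ON held 9.84 and 12.9 CPM. Its estimate was 3.08 without the optoWnt unstimulated 3 d library and 1.97 with the first component as a covariate. It was called by edgeR with no low-count filter (adjusted p = 0.011), on the 4 libraries alone (0.014) and without the 4 other low-scoring libraries (0.0273). DESeq2 gave it no adjusted p.

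Downward, 1091 of the 12190 genes tested met the same conditions, and the 8 with the largest estimates were all component genes. ENSRNOG00000003975 stood at 13.5 and 14.4 CPM after withdrawal of CHIR99021 and Wnt3a, against 154 (wild-type) and 620 CPM (optoWnt), an estimate of -6.33 on the log2 scale (SE 1.63, edgeR adjusted p = 0.167). The light library held 230 CPM, between the unstimulated values. The estimate was -5.53 without the wild-type and -7.74 without the optoWnt unstimulated 3 d library, and -2.16 with the first component as a covariate. DESeq2 (adjusted p = 0.00379) and edgeR with no low-count filter (1.47e-05) called it. So did edgeR on the 4 libraries alone (0.00248) and edgeR without the 4 other low-scoring libraries (0.00626). No other setting did. ENSRNOG00000031960 stood at 4.99 and 8.94 CPM against 99.3 and 67.5 CPM, an estimate of -5.87 on the log2 scale (SE 1.91, edgeR adjusted p = 0.17). Its size depended on single libraries, with -3.28 without the wild-type and -8.96 without the optoWnt unstimulated 3 d library, -5.24 without the CHIR99021 and -6.96 without the Wnt3a library, and -0.69 with the first component as a covariate. The same 4 settings called ENSRNOG00000031960 (adjusted p = 0.00953, 0.000284, 0.00248 and 0.00626 in that order), and the others did not. The gene was also low in libraries of other treatments, at 6.74 CPM in wild-type cells at 0 d, 0 counts in wild-type cells at 5 d, 3.33 CPM at 5 d of Wnt3a and 6.8 CPM at 3 d of light. After only 1 d of withdrawal it stood at 91.1 (CHIR99021) and 128 CPM (Wnt3a). For ENSRNOG00000031960 the light estimate of the model was -2.32 although the light library (85.2 CPM) lay between the unstimulated ones, and the plain difference was 0.06.

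Light, with 1 withdrawn library, differed from the 2 unstimulated libraries in 0 of 12190 genes (0%) by edgeR's quasi-likelihood test, which assumes that the lone light library varies as the other libraries do (smallest adjusted p 0.864). At an unadjusted p under 0.05, 224 genes were higher (1.84%) and 411 lower (3.37%), close to the 610 of chance, and DESeq2 called 0 (642 unadjusted). The light library was at least 2-fold above both unstimulated libraries in 292 of 7915 genes (3.69%) and at least 2-fold below in 213 of 7536 (2.83%). Of the 411 genes lower at an unadjusted p under 0.05, 5 were in the lower component set, which holds 757 of all 12190. Of the 224 higher, 0 were in the higher component set, which holds 325. Overlap with the component set of the opposite direction was not counted. Without the 6 low-scoring libraries the count of calls was again 0 (1197 unadjusted).

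ENSRNOG00000056337 had the largest positive estimate for light, at 19.4 CPM (88 counts) against 0.5 and 0.342 CPM (2 counts each) in wild-type and optoWnt cells. The log2 fold change was 4.95 (SE 1.43, adjusted p by edgeR = 0.864). Without the wild-type or the optoWnt unstimulated 3 d library it was 5.67 or 3.13. The gene stood at 18.2 CPM after 1 d of light, 0.272 CPM 1 d after light ended and 19.4 CPM 2 d after, and at 0.217 and 1.44 CPM after withdrawal of CHIR99021 and Wnt3a. ENSRNOG00000016412 stood at 38.3 CPM against 4.25 and 3.25 CPM, an estimate of 3.71 on the log2 scale (SE 1.1, edgeR adjusted p = 0.864), with 17.2 CPM after 1 d of light and 3.54 CPM 1 d after light ended. Both genes were thus near the unstimulated level in the library of 1 d OFF and above it in those of 1 d ON and 2 d OFF. At 3 d of light without interruption no rise was seen in either. That library held 0 counts of ENSRNOG00000056337 (3 counts there stand at 1.2 CPM) and 1.6 CPM (4 counts) of ENSRNOG00000016412.

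Downward under light, ENSRNOG00000002826 stood at 0.881 CPM (4 counts) against 18.5 and 12.8 CPM, an estimate of -3.79 on the log2 scale (SE 0.88, edgeR adjusted p = 0.864). Every other library of the series held at least 8.9 CPM of it. ENSRNOG00000059093 stood at 1.1 CPM (5 counts) against 14 and 14.4 CPM, an estimate of -3.24 on the log2 scale (SE 1.43, edgeR adjusted p = 0.944). Without the optoWnt unstimulated 3 d library the estimate was -2.22. The gene was also low at 3 and 5 d of CHIR99021, at 2.24 and 1.41 CPM, and 1 d after withdrawal, at 2.6 to 3.32 CPM over the 3 inducers.

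The difference between the inducers was tested directly, CHIR99021 and Wnt3a against light, all at 1 d ON 2 d OFF. By edgeR's quasi-likelihood test 0 of 12190 genes passed (0%; smallest adjusted p 0.0561), with 1405 higher (11.5%) and 1310 lower (10.7%) at an unadjusted p under 0.05. DESeq2 called 724, edgeR with no low-count filter 738, edgeR without the 4 other low-scoring libraries 2480 and edgeR with the first component as a covariate 7, of which 4 were higher and 3 lower. ENSRNOG00000056337 and ENSRNOG00000002826, the leading genes under light, had differences of -4.67 and 3.69 on the log2 scale. Both were picked on the light library that is 1 side of this comparison, so their large differences follow in part from the choice. ENSRNOG00000026053 differed by 1.85 (SE 0.92, edgeR adjusted p = 0.256).

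The next question was whether genes that a stimulus had moved were back at the unstimulated level 2 d after it ended. Such genes were chosen on other libraries. For each inducer, genes were taken that were at least 2-fold above, or below, each of the 4 unstimulated libraries of 0 and 5 d in the library of 1 d ON, with at least 10 CPM in that library (for rises) or in each of the 4 (for falls). They were then read at 1 d ON 2 d OFF of the same inducer against both unstimulated libraries of 3 d. Each choice rests on 1 library. The shares below are set beside the share among all genes that could have been chosen.

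CHIR99021 had 44 such genes upward after 1 d, and 19 of them (43.2%, exact 95% binomial interval 28.3 to 59) were at least 2-fold above both unstimulated 3 d libraries after 2 d OFF, against 3.04% of all 7968 genes that could be chosen. Their median log2 difference from the unstimulated 3 d mean was 2.72 at 1 d ON, 1.54 after 1 d OFF and 0.96 after 2 d OFF. The median of these 44 genes was thus still above the unstimulated level at both times. The library of 2 d OFF is low-scoring and that of 1 d OFF is not, and the part of this in the values was not tested. Of the 44, 26 were beyond after 1 d OFF (59.1%, against 1.83%), and 13 at both times. Component genes made up 2 of the 44 and 0 of the 19, beside 757 lower and 325 higher among all 12190. Genes of the higher component set could not enter this choice, since wild-type 0 d and 5 d are low-scoring. Downward, 1 of 19 genes stayed beyond (5.26%, against 5.05%), and the median was -1.37 at 1 d ON and -0.05 after 2 d OFF.

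Wnt3a had 43 genes upward and 85 downward after 1 d, chosen on the shallowest library of the series (696463 reads, 3 counts at 4.21 CPM). How well these genes mark the Wnt3a stimulus was not tested. ENSRNOG00000002331, picked as 1 example, held 7.01 CPM in that library, 114 after 1 d OFF and 1798 at 3 d of Wnt3a. At 1 d ON it held 459 CPM under CHIR99021 and 242 under light. A further example well above 3 counts, ENSRNOG00000003869, held 92.5 CPM at 1 d of Wnt3a and 505 CPM at 1 d of CHIR99021. Its unstimulated values at 0 and 5 d ran from 82.3 to 204 CPM. The Wnt3a shares are thus not comparable with those of the other inducers. After 2 d OFF, 0 of the 43 (0%, interval 0 to 8.22, against 4.96%) and 1 of the 85 (1.18%, against 8.09%) were beyond the unstimulated libraries in the same direction. Another 14 of the 43 were at least 2-fold below both (32.6%, against 12.4%). The median of the 43 was 1.14 at 1 d ON, 0.15 after 1 d OFF and -0.76 after 2 d OFF.

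Light had 93 genes upward, of which 23 (24.7%, interval 16.4 to 34.8) were beyond after 2 d OFF, against 2.63%, and 85 downward, of which 11 were (12.9%, interval 6.64 to 22, against 2.55%). Fewer were beyond after 1 d OFF, 9 of 93 (9.68%, against 0.9%) and 6 of 85 (7.06%, against 0.567%), and 3 and 2 were beyond at both times. The medians of the 93 were 1.56 at 1 d ON, 0.44 after 1 d OFF and 0.82 after 2 d OFF. The library of 1 d OFF was therefore nearer to the unstimulated level than that of 2 d OFF. Of the 93, 19 were component genes, and 3 of the 23, beside the 757 lower and 325 higher component genes among all 12190.

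The same was done with genes chosen at 3 d ON, which the withdrawn cells had not received. Of 422 genes above under CHIR99021, 95 (22.5%, interval 18.6 to 26.8) were beyond after 2 d OFF, against 4.09%, and of 278 below, 20 (7.19%, against 5.05%). Under Wnt3a 13 of 146 were beyond upward (8.9%, against 5.28%) and 3 of 89 downward (3.37%, against 8.09%). Under light 7 of 139 (5.04%, against 2.08%) and 3 of 85 (3.53%, against 2.55%) were. The share for CHIR99021 upward stood above its background here too (22.5% against 4.09%), and the exact 95% intervals of the other 5 shares contained theirs. These intervals cover counting of genes only and treat the genes as independent. Each inducer has a single library per profile, so the intervals cannot decide which inducers differ from background, and this was not tested.

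**Figure D3:**
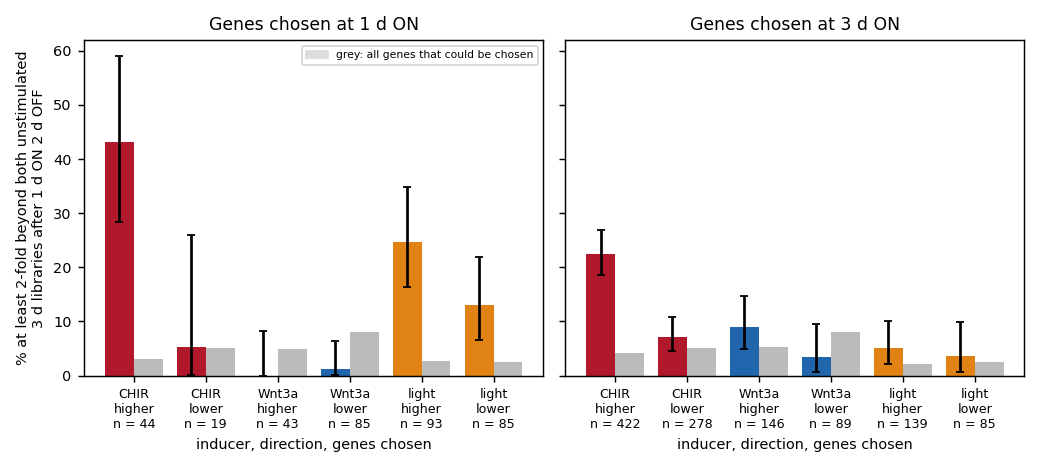
Percentage of the genes chosen under an inducer that were at least 2-fold beyond both unstimulated 3 d libraries, in the same direction (coloured bars). Genes were chosen at 1 d ON (left) or 3 d ON (right) and read after 1 d ON 2 d OFF of that inducer. Error bars are exact 95% binomial intervals, and grey bars give the percentage among all genes that could be chosen. For Wnt3a at 1 d ON the choice rests on the shallowest library. The tallest bars are CHIR99021 upward (43.2% and 22.5%) and light upward at 1 d ON (24.7%).

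Genes that a long stimulus moves were read in the same way. In both libraries of 5 d ON (CHIR99021 and Wnt3a), 119 genes exceeded both unstimulated libraries of 5 d by 2-fold or more, with 10 CPM or more in both, and 133 lay below them by that margin. Each side of this choice holds 1 low-scoring library, so a gene that separates those libraries completely cannot enter, and 0 of the 252 were component genes. After 2 d OFF, 60 of the 119 were at least 2-fold above both unstimulated 3 d libraries under CHIR99021 (50.4%, against 4% of the 6731 genes that could be chosen). Under Wnt3a 43 were (36.1%, against 6.31%) and under light 5 (4.2%, against 1.65%), and 38 were so under both CHIR99021 and Wnt3a (31.9%, against 2.11%). Their median log2 difference was 1.32 (CHIR99021), 0.98 (Wnt3a) and -0.11 (light), beside 0.07, 0.08 and -0.04 over all genes that could be chosen, and -0.08 and 0.08 in the unstimulated libraries themselves.

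Of the 133 genes lower at 5 d ON, 48 were at least 2-fold below both unstimulated 3 d libraries after withdrawal of CHIR99021 (36.1%, against 6.08%), 32 after Wnt3a (24.1%, against 8.75%) and 3 after light (2.26%, against 2.76%). Both CHIR99021 and Wnt3a were so for 29 (21.8%, against 4.14%). The medians were -0.94, -0.7 and 0.19 in the same order. In both sets the CHIR99021 and Wnt3a medians stood on the stimulated side of the unstimulated level 2 d after the stimulus had ended. The light medians stood near that level, with quartiles over genes of -0.57 to 0.44 and -0.23 to 0.51. No light library of 5 d ON was analysed here, and light entered neither choice.

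The libraries of 1 d OFF gave the same order of inducers for the genes higher at 5 d ON. None of them is low-scoring, and the part of the first component in the values after 2 d OFF was not tested. Upward, 46 of the 119 were beyond under CHIR99021 (38.7%, against 1.86%), 23 under Wnt3a (19.3%, against 0.995%) and 3 under light (2.52%, against 0.669%), with medians of 0.94, 0.6 and 0.22. These libraries were collected on day 2 and are set here against unstimulated cells of day 3. Downward, 28 (21.1%, against 1.74%), 14 (10.5%, against 1.27%) and 9 (6.77%, against 0.99%) of the 133 were beyond, with medians of -0.55, -0.27 and -0.29.

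**Figure D4:**
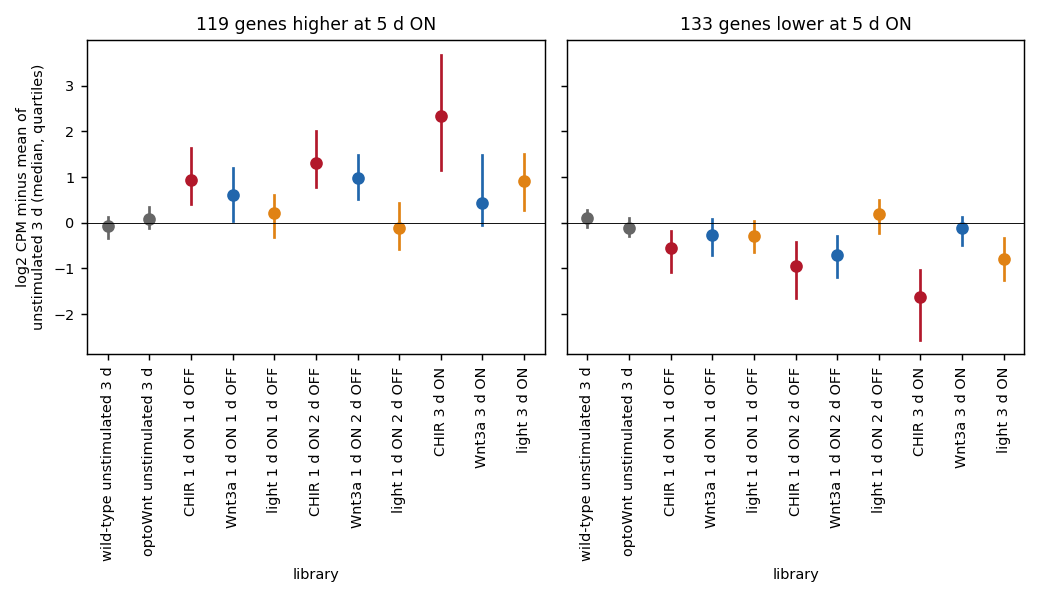
Median (points) and quartiles (lines) over genes of log2 CPM minus the mean of the 2 unstimulated 3 d libraries (vertical axis), by library (horizontal axis), for the 119 genes higher (left) and the 133 genes lower (right) at 5 d ON. At 1 d ON 2 d OFF the CHIR99021 and Wnt3a medians are 1.32 and 0.98 on the left and -0.94 and -0.7 on the right, and the light medians are -0.11 and 0.19.

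Individual genes of these sets differed in how far they stood from the unstimulated level. ENSRNOG00000026053, the gene with the widest margin at 5 d ON, held 119.7 CPM at 3 d of CHIR99021 without interruption and 18.9 CPM after 1 d of it. From there it stood at 19 CPM after 1 d OFF and 13.5 CPM after 2 d OFF. Under Wnt3a it held 1.4 CPM (1 count) after 1 d, below that library's limit of 4.21 CPM for 3 counts, 25.6 CPM after 1 d OFF and 18.4 CPM after 2 d OFF. Under light it held 2.08, 0.272 and 4.63 CPM at the same 3 points and 34.4 CPM at 3 d ON. Its light value after 2 d OFF was above both unstimulated 3 d values and close to the 4.14 CPM of unstimulated wild-type cells at 5 d (log2 fold change 2.3, SE 1.07, edgeR adjusted p = 0.983).

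ENSRNOG00000048651 stood at 10.2 and 8.36 CPM after withdrawal of CHIR99021 and Wnt3a and at 2.2 CPM after light, against 0.5 and 0.342 CPM without a stimulus. The means were 9.28 ± 1.3 and 0.421 ± 0.112 CPM (SD, n = 2 each), and the log2 fold change for CHIR99021 and Wnt3a was 4.19 (SE 1.08, edgeR adjusted p = 0.167). All 3 withdrawn values lay above both unstimulated ones, and the 6 unstimulated libraries of the series reached 0.5 CPM at most. Under both CHIR99021 and Wnt3a it was higher after 2 d OFF than after 1 d OFF, where it held 3.54 and 4.08 CPM, and than after 1 d ON (1.53 CPM and 0 counts). DESeq2 (adjusted p = 0.00972), edgeR with no low-count filter (0.0155), edgeR on the 4 libraries alone (0.00446) and edgeR without the 4 other low-scoring libraries (0.0212) called it. Without the optoWnt unstimulated 3 d library the estimate was 0.95. The genotype term then rests on the unstimulated 0 d and 5 d libraries, where the gene held 0 to 0.284 CPM. With no genotype term the estimate was 4.38, and with the first component as a covariate it was 3.51. The plain difference of mean log2 CPM was 3.35.

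Among genes lower at 5 d ON, ENSRNOG00000016516 is an abundant transcript that the unstimulated cells gained between 0 d (32.3 and 61.1 CPM) and 3 d (4387 and 2965 CPM). After 2 d OFF it stood at 738 (CHIR99021) and 1088 CPM (Wnt3a), below both unstimulated 3 d values, and at 5367 CPM under light, above both. The means of CHIR99021 and Wnt3a and of unstimulated cells were 913 ± 247 and 3676 ± 1006 CPM (SD, n = 2 each), and the log2 fold change was -2.02 (SE 0.77, adjusted p by edgeR = 0.189). DESeq2 (adjusted p = 0.0492), edgeR with no low-count filter (0.0126) and edgeR on the 4 libraries alone (0.0157) called it. The estimate was -3.11 without the CHIR99021, -1.35 without the Wnt3a and -2.87 without the optoWnt unstimulated 3 d library. It had stood at 210, 978 and 1144 CPM after 1 d ON (CHIR99021, then Wnt3a, then light). After 1 d OFF the values were 535, 1110 and 1545 CPM in that order.

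ENSRNOG00000005271 stood at 1.52 and 2.6 CPM after withdrawal of CHIR99021 and Wnt3a, against 8.25 and 10.3 CPM without a stimulus and 16.5 CPM under light. The log2 fold change was -2.28 (SE 0.77, adjusted p by edgeR = 0.173), and edgeR on the 4 libraries alone called it (adjusted p = 0.0269). Without the CHIR99021 library the estimate was -2.89. Like the previous gene it was low at 0 d without a stimulus, at 1.44 and 1.99 CPM, and the withdrawn CHIR99021 value was near that level. For both genes the light library stood above both unstimulated ones, the opposite side from CHIR99021 and Wnt3a.

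Genes that were chosen at 1 or 3 d ON under at least 2 inducers numbered 113 upward and 102 downward. After 2 d OFF, 10 of the 113 and 1 of the 102 were beyond both unstimulated 3 d libraries under at least 2 of those inducers, and 1, ENSRNOG00000026053, under all 3. The share upward (8.85%) stood above the 1.7% of all genes that could be chosen under at least 2 inducers, and the share downward (0.98%) stood below 3.49%. ENSRNOG00000040287 had the widest margin, with 10.6 (CHIR99021), 7.5 (Wnt3a) and 2.2 CPM (light) against 1.75 and 0.855 CPM, while unstimulated wild-type cells at 5 d held 5.7 CPM. Under CHIR99021 it had stood at 63 CPM after 1 d ON, 16.2 CPM after 1 d OFF and 208 CPM at 3 d ON, so it was lower at each step after withdrawal. ENSRNOG00000046449 held 4.56 and 6.34 CPM under CHIR99021 and Wnt3a against 1 and 0.855 CPM, but unstimulated cells at 5 d reached 12.4 (wild-type) and 4.85 CPM (optoWnt). The gene downward was ENSRNOG00000021272, at 5.64 and 9.22 CPM against 22.5 and 19.3 CPM, with 24.4 CPM under light. These 3 genes were picked partly on the withdrawn values, so no test is given for them.

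**Figure D5:**
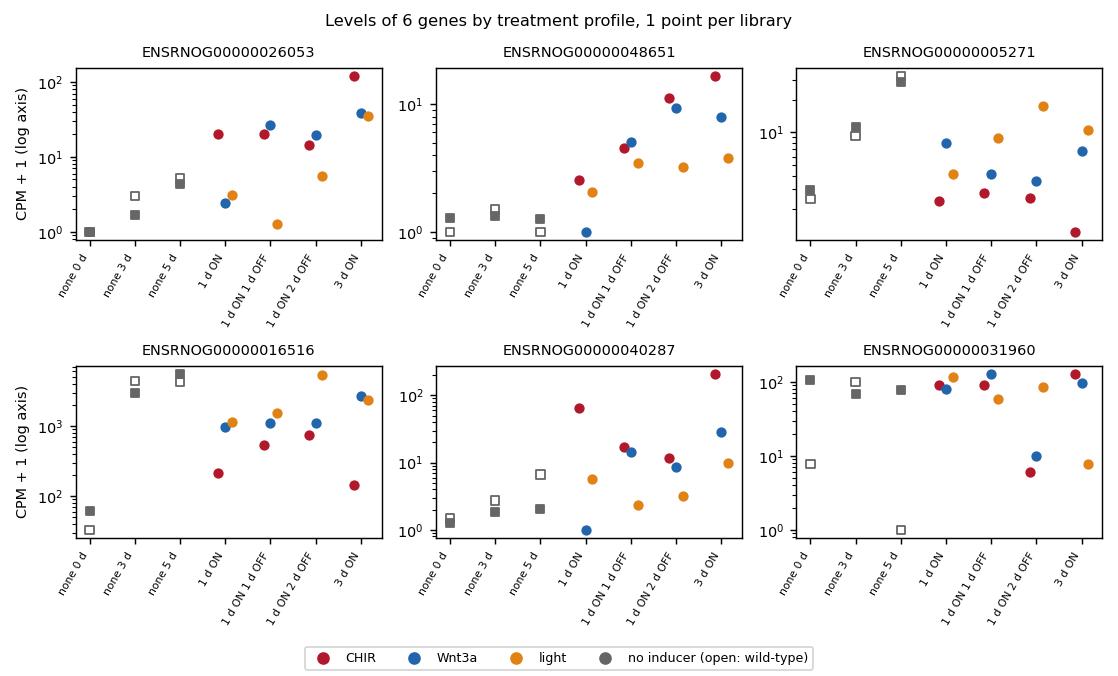
CPM + 1 (log axis) of 6 genes by treatment profile, 1 point per library, for no inducer (squares, open for wild-type) and for CHIR99021, Wnt3a and light (circles). For ENSRNOG00000026053, ENSRNOG00000048651 and ENSRNOG00000040287 the CHIR99021 and Wnt3a points of 1 d ON 2 d OFF sit above both unstimulated 3 d points, and for ENSRNOG00000031960 they sit with wild-type 0 d and light 3 d ON.

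Genes that move as unstimulated cells age were read last, to see where the withdrawn cells stood between 0 and 5 d. Without a stimulus, 437 genes exceeded both 0 d libraries by 2-fold or more in both 5 d libraries and 342 lay below them by that margin, with 10 CPM or more on the higher side. By 3 d the unstimulated cells had covered a median of 81.7% (wild-type) and 75.5% (optoWnt) of the log2 change of the 437 genes. The withdrawn cells had covered 77.8% (CHIR99021), 81.1% (Wnt3a) and 80.1% (light), all within that range. For the 342 genes the unstimulated values were 87.2% and 76.6%, and the withdrawn ones 77.4%, 84.9% and 87.7%, of which light lay just above the unstimulated pair. By the median over these genes, the withdrawn cells were thus about as far along as unstimulated cells of the same day. Of the 437 genes, 9.38% (CHIR99021), 6.86% (Wnt3a) and 3.2% (light) were at least 2-fold below both unstimulated 3 d libraries, against 6.08%, 8.75% and 2.76% of all genes that could be chosen. Another 5.49%, 6.86% and 1.37% were at least 2-fold above, against 2.77%, 5.23% and 1.67%. Of the 342 genes, 10.2%, 9.36% and 4.09% were at least 2-fold above both, against 2.97%, 5.62% and 1.73%, and 3.51%, 7.89% and 8.48% were at least 2-fold below, against 5.71%, 9.42% and 3.01%. The shares farthest from those of all genes were CHIR99021 above (10.2%) and light below (8.48%) among the genes that decline with time.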

How the data were processed

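The authors deposited whole-number counts of reads per Ensembl gene (32623 identifiers, no normalization). The submitters' processing notes name Bowtie2, Subread, featureCounts and the build Rnor_6.0; the sources used here state neither versions nor the handling of strand and of multi-mapped reads, so near-identical or overlapping genes may share reads. All 20 wells had a library, and no other per-sample column was present.

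Tests used edgeR 4.0.16 (quasi-likelihood, TMM, filterByExpr by profile, 12190 genes kept; R 4.3.3, limma 3.58.1) on all 20 libraries, with Benjamini-Hochberg adjustment over all kept genes and a threshold of 0.05; DESeq2 1.42.0 was an alternative. The model for all inducers had 11 coefficients (profile, genotype, inducer; 9 residual degrees of freedom). The model with light apart had 14 (CHIR99021 and Wnt3a together by profile, light by profile, genotype, CHIR99021 against Wnt3a; 6 residual degrees of freedom). The labels do not say that libraries came from separate cultures, so p-values measure the spread between these libraries that the model leaves. That spread may be technical or may hold differences between inducers or genotypes that vary by profile. Libraries of the same profile differ in inducer or genotype and are no replicates, and no such pair agreed within sampling noise (lowest chi-square per degree of freedom 5.11). Scripts were tested on simulated data.

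Fold thresholds on single libraries used log2 CPM with a prior count of 2; intervals are exact (Clopper-Pearson) and cover counting of genes only. Genes were named by a rule: the largest estimates among called genes, else among genes with an unadjusted p under 0.05, 10 CPM or more in each library of the higher group and no overlap; the widest margins at 5 d ON; and genes beyond under at least 2 inducers. At most 2 identifiers per direction are printed for each, since none has a symbol. The gene lists planned by symbol could not be read. The comparison, the sets and the rules were chosen with earlier results of these data known, and component and time sets after the counts were seen.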

Additional observations from a re-analysis of the deposited data

Results flagged for a closer look

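The genes moved at 5 d ON are given here because the CHIR99021 and Wnt3a medians after 2 d OFF differ in sign from the light median, which lay near the unstimulated 3 d level (-0.11 and 0.19, with quartiles on both sides of 0). For the 119 genes higher at 5 d ON, the mean of the CHIR99021 and Wnt3a medians exceeded the light median by 1.26 on the log2 scale. For the 133 genes lower at 5 d ON, the same difference was -1.01. Neither difference was tested, since light has 1 library. The CHIR99021 and Wnt3a libraries have low first component scores and the light library does not, and the part of this in the difference was not tested.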

How the results depend on the processing

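No paired analysis was possible because the labels number no replicates. The count of calls was 0 with all inducers and for light under each alternative run, including leaving out each unstimulated library and, with all inducers, each withdrawn one (range 0 to 0). For CHIR99021 and Wnt3a against unstimulated cells it was 0 under RLE scaling, the component covariate, no genotype term, no wild-type libraries and each library left out (range 0 to 0), and 886 with DESeq2, 920 with no low-count filter, 1101 with the 4 libraries alone and 611 without the 4 other low-scoring libraries, the last chosen after seeing the data. Against light it was 724, 738 and 2480 under the first, second and last of these, 7 with the component covariate, and 0 with RLE scaling or without the CHIR99021 or the Wnt3a library. The cause was not tested. For the 15 genes named in a tested comparison, 153 of 176 estimates under alternatives kept their direction and stayed uncalled, 23 became called and 0 reversed, but 57 moved the linear fold by over 1.5 times (24 of them on leaving out 1 library, in 11 genes, and 8 with the component covariate). The widest moves were ENSRNOG00000031960 (-5.87 to -0.69) and ENSRNOG00000003975 (-6.33 to -2.16) with that covariate and, on leaving out 1 library, ENSRNOG00000048651 (4.19 to 0.95 without optoWnt unstimulated 3 d).

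Of 60 alternative shares of genes beyond the unstimulated level, 49 lay within the interval of the value reported. At 3-fold the shares were 0% for CHIR99021 downward and Wnt3a downward at 1 d ON and for Wnt3a and light downward at 3 d ON, 16.9% for CHIR99021 upward at 3 d ON and 4.76% for light downward at 1 d ON. At 1.5-fold they were 14.5% for CHIR99021 downward at 3 d ON, 23.1% for light downward at 1 d ON and 10.3% for light upward at 3 d ON. With a floor of 20 CPM they were 0% for CHIR99021 and Wnt3a downward at 1 d ON. The share among all genes that could be chosen was not taken under these alternatives, so these shares have no background beside them. With single libraries, a share near its background or a level near 3 counts cannot be placed.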
